A study of Mus musculus with 34 samples.

Results

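The transcriptomes of brown preadipocytes carrying ectopic PPARγ and either WT or K36M mutant histone H3.3 were compared after 24 h with rosiglitazone (Rosi), a synthetic PPARγ ligand. There was 1 RNA-Seq library of each kind. A gene was kept when its RPKM, a read count scaled to transcript length and library depth, was at least 1 in either library. This rule kept 11987 of the 23109 genes measured. A gene was called lower or higher in H3.3K36M cells when its RPKM differed by over 2-fold. With a single library on each side the differences have no replicate check and no test across conditions was possible, so the intervals given are 95% Clopper-Pearson intervals of the read counts and cover counting error only.

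PPARγ is the nuclear receptor that drives adipogenesis. It pairs with RXR on DNA, and a ligand such as Rosi switches on genes of fatty acid uptake, triglyceride storage, and adipokine secretion. C/EBPα is its main partner, and each of the pair maintains the expression of the other. Methylation of histone H3 at K36 marks active chromatin and is antagonistic to methylation at K27 by Polycomb complexes. The K36M form of H3.3 acts as a dominant inhibitor of the enzymes that methylate K36.

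All libraries came from SV40T-immortalized brown preadipocytes taken from the interscapular brown fat of newborn pups (C57BL/6J in the labels). They were infected first with retrovirus expressing FLAG-tagged WT or K36M H3.3 and then with retrovirus expressing PPARγ, each followed by drug selection. The cultures were therefore selected populations, and PPARγ came from a viral promoter in both. The labels also give a floxed glucocorticoid receptor gene with control or Cre retrovirus, without saying which these 4 libraries received, and time 0 for the DMSO libraries, which the study describes as 24 h of DMSO. *Nr3c1*, the glucocorticoid receptor gene, had an RPKM of 21.3 in WT cells and 13.7 in K36M cells with Rosi, and of 10.54 and 10.1 with DMSO. *Pparg* itself had 56.8 and 42.6 RPKM with Rosi, and 60.2 and 71.8 with DMSO. Histone transgenes could not be told from the endogenous genes by these values: *H3f3b* had 235 RPKM in WT cells and 440 in K36M cells with Rosi, and *H3f3a* had 14.3 and 17.9.

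The WT library with Rosi held 16543065 mapped reads and the K36M library 12660471, against 21749427 and 24365867 with DMSO. The K36M libraries carried more reads spread thinly over genes that are otherwise silent. Among 1506 olfactory, vomeronasal, and taste receptor genes, 814 had a read in the K36M library with Rosi and 339 in the WT library. With DMSO these numbers were 700 and 384, and the 10 libraries of the other experiments had between 43 and 182. The mean RPKM of these receptor genes was 0.0677 in K36M and 0.0172 in WT cells with Rosi, both far under the minimum of 1. Subtracting these means left 1517 genes lower and 797 higher. The part of this thin background in the results on weakly expressed genes was otherwise not tested.

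All 8 fibroblast-like preadipocyte markers were kept. Of 8 brown fat lineage markers 5 were kept, of which 0 were lower and 3 higher. *Ebf2* had the highest level, with 15.0 (WT) and 9.79 RPKM (K36M), and was the only kept marker with a log2 ratio below 0 (-0.61). *Zic1* (0.88) lay within 2-fold. *Prdm16* (1.44), *Lhx8* (2.21), and *Mpzl2* (6.60) were higher. These last 3 reached an RPKM of 1 only with K36M, at 2.84 or less, so nothing is read from the count. None of the 9 endothelial markers was kept, and 1 of the 12 macrophage and leukocyte markers was (*Cd14*, 1.25 and 0.686 RPKM). The summed RPKM was 0.569 and 1.29 for the endothelial list, and 1.92 and 2.13 for the macrophage list, in WT and K36M cells. These cell types were thus near absent from both libraries. The 9 epithelial markers summed to 24.8 and 40.2 RPKM, and 3 were kept. *Krt19* had 24.7 and 30.7 RPKM, while *Krt18* and *Krt8*, which form the filaments of simple epithelia, had 0.0864 and 0.0335 RPKM in WT and 6.996 and 1.05 in K36M cells, and both were also higher in K36M cells with DMSO. Whether epithelial-like cells had a part in other differences was not tested. In bulk RNA, fewer cells of a type and less RNA per cell cannot be told apart.

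With Rosi, 1446 genes (12.1% of those kept) were lower and 841 (7.02%) were higher in H3.3K36M cells, and 9700 lay within 2-fold. The counting interval of the ratio excluded 1 for 1364 of the lower and 787 of the higher genes. The median RPKM in the higher library was 6.42 for lower genes and 4.03 for higher genes. Of 5908 genes that reached an RPKM of 10, 542 were lower and 266 were higher, and of 442 that reached 100, 50 were lower and 36 were higher. The median log2 ratio over the 10821 genes that reached an RPKM of 1 in both libraries was -0.11, and 90% of these genes fell between -1.26 and 0.91. When the K36M library was rescaled to a median ratio of 1, 1177 genes were lower and 1036 higher, so that lower genes made up 53.2% of the calls in place of 63.2%. At the threshold, *Ak4* was the last gene kept (0.877 and 1.00 RPKM) and *Mir147* the first left out (0 and 0.9998 RPKM).

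**Figure D1:**
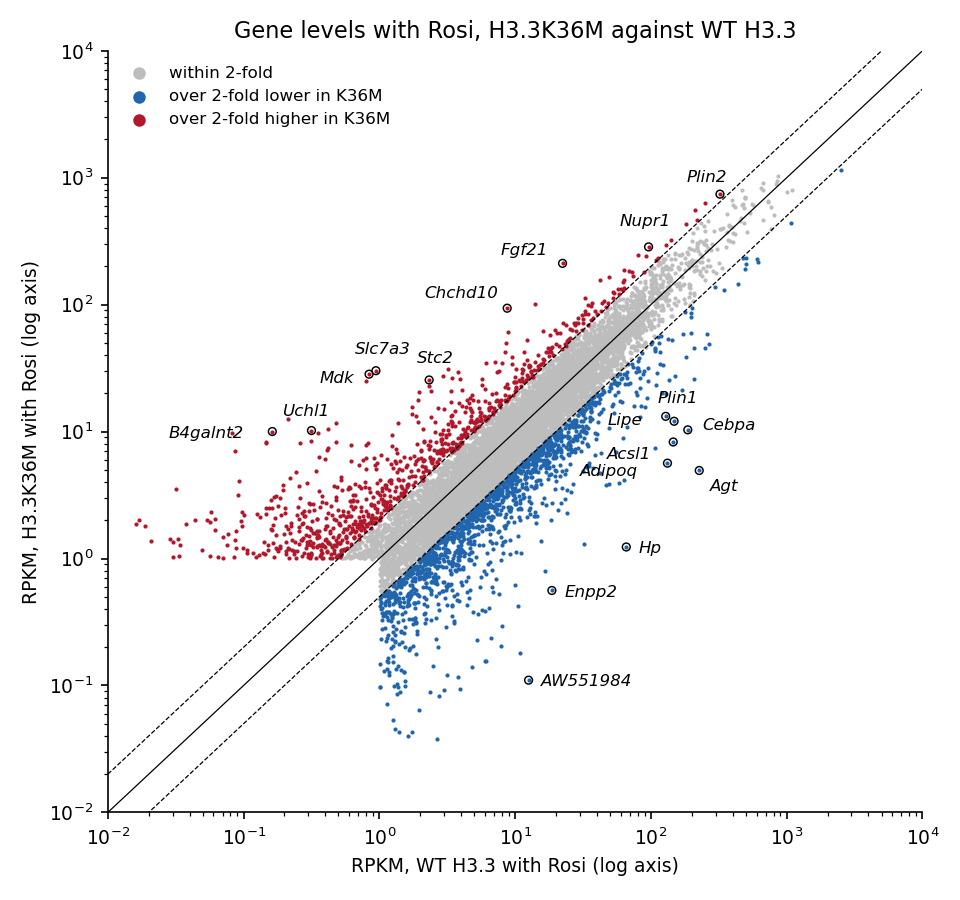
RPKM of each kept gene above 0 in both libraries, with WT H3.3 and Rosi on the x axis and H3.3K36M and Rosi on the y axis (both log axes). Blue points are over 2-fold lower and red points over 2-fold higher in K36M cells, grey points lie within 2-fold, the solid line marks equal levels and the dashed lines 2-fold; *Agt*, *Cebpa*, and *Plin1* stand far under the diagonal and *Fgf21*, *Slc7a3*, and *Mdk* far above it.

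The genes lowest in H3.3K36M cells included several that are known from mature fat cells. *Agt* encodes angiotensinogen, the precursor of angiotensin peptides (NCBIM37, chr8:127080434-127093606). It had 227 RPKM in WT cells and 4.94 in K36M cells with Rosi, a 45.9-fold difference (log2 ratio -5.52, counting interval -5.80 to -5.26), and 17.9 and 1.18 with DMSO. *Hp*, which encodes the hemoglobin scavenger haptoglobin (chr8:112099030-112103072), had 65.8 and 1.23 RPKM with Rosi, and 6.22 and 0.488 with DMSO. For both genes K36M cells were low in each treatment, and the levels were higher with Rosi than with DMSO in both, with a wider gap.

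*Adipoq*, the gene of the adipocyte hormone adiponectin (chr16:23146609-23158101), was also lower in K36M cells in each treatment. It was near silent with DMSO, with 1.46 (WT) and 0.400 RPKM (K36M), and reached 132 RPKM in WT but 5.64 in K36M cells with Rosi (log2 ratio -4.55, counting interval -4.88 to -4.25). *Lgals12*, a galectin of the lipid droplet surface (chr19:7671150-7681683), had 0.334 and 0.238 RPKM with DMSO, and 32.2 and 1.29 with Rosi. *Acsl1*, which activates long-chain fatty acids to their CoA esters (chr8:47556395-47621405), had 4.66 and 2.61 RPKM with DMSO, and 146 and 8.28 with Rosi. *Lgals12* and *Acsl1* lay within 2-fold with DMSO and thus separated the cells mainly in the presence of ligand. *Adipoq* was over 2-fold lower in K36M cells with DMSO too, with a wider gap with Rosi.

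The other genes among the 12 lowest were *AW551984*, *A530016L24Rik*, *Enpp2*, *Aldh1a7*, *Ccn5*, *Cebpa*, and *Negr1*, with log2 ratios from -6.83 to -4.02. *Enpp2* encodes autotaxin, the secreted enzyme that makes lysophosphatidic acid, and had 18.6 RPKM in WT cells and 0.560 in K36M cells with Rosi. *Ccn5*, a matricellular protein gene, had 16.6 and 0.801 RPKM. It differed from the adipocyte genes in that the level in K36M cells was lower with Rosi than with DMSO, where it was 1.85.

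Genes of triglyceride release were low together. Of the lipolysis genes, 9 of 10 kept genes were lower and 0 were higher, with a median log2 ratio of -2.34, against 12.1% of all kept genes and a median of -0.11. All 10 were over 2-fold higher with Rosi than with DMSO in WT cells, and 6 of the 10 in K36M cells. *Lipe*, hormone-sensitive lipase, had 128 RPKM in WT cells and 13.2 in K36M cells with Rosi, and 5.38 and 3.397 with DMSO. *Pnpla2*, which cleaves the first fatty acid from triglyceride, had 111 and 28.9 RPKM with Rosi, and 7.92 and 7.60 with DMSO. *G0s2*, an inhibitor of that lipase, had 182 and 38.9 RPKM with Rosi, and 1.53 and 0.292 with DMSO. The enzymes and their inhibitor were low together, and *Adrb1*, at 2.81 and 2.79 RPKM, was the one listed gene whose level was alike in both cells.

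Of 16 kept triglyceride and lipid droplet genes, 9 were lower and 3 were higher, against 12.1% and 7.02% of all kept genes. *Plin1*, the perilipin that coats the droplet and guards it from lipases, had 148 RPKM in WT cells and 12.1 in K36M cells with Rosi, and 2.37 and 0.684 with DMSO. *Agpat2* and *Dgat1*, acyltransferases of triglyceride synthesis, had 109 and 83.3 RPKM in WT, and 23.1 and 21.9 in K36M cells. *Lpin1*, the phosphatidate phosphatase that supplies diacylglycerol, had 33.1 and 5.22 RPKM. *Plin2*, a droplet coat protein found in most cell types, went the other way, with 322 RPKM in WT cells and 742 in K36M cells with Rosi, and 72.8 and 105 with DMSO. *Plin5*, a coat protein of oxidative tissues, had 1.31 and 5.83 RPKM with Rosi. The perilipin genes therefore divided, with *Plin1* and *Plin4* lower, *Plin2* and *Plin5* higher, and *Plin3* at 26.0 and 25.8 RPKM.

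**Figure D2:**
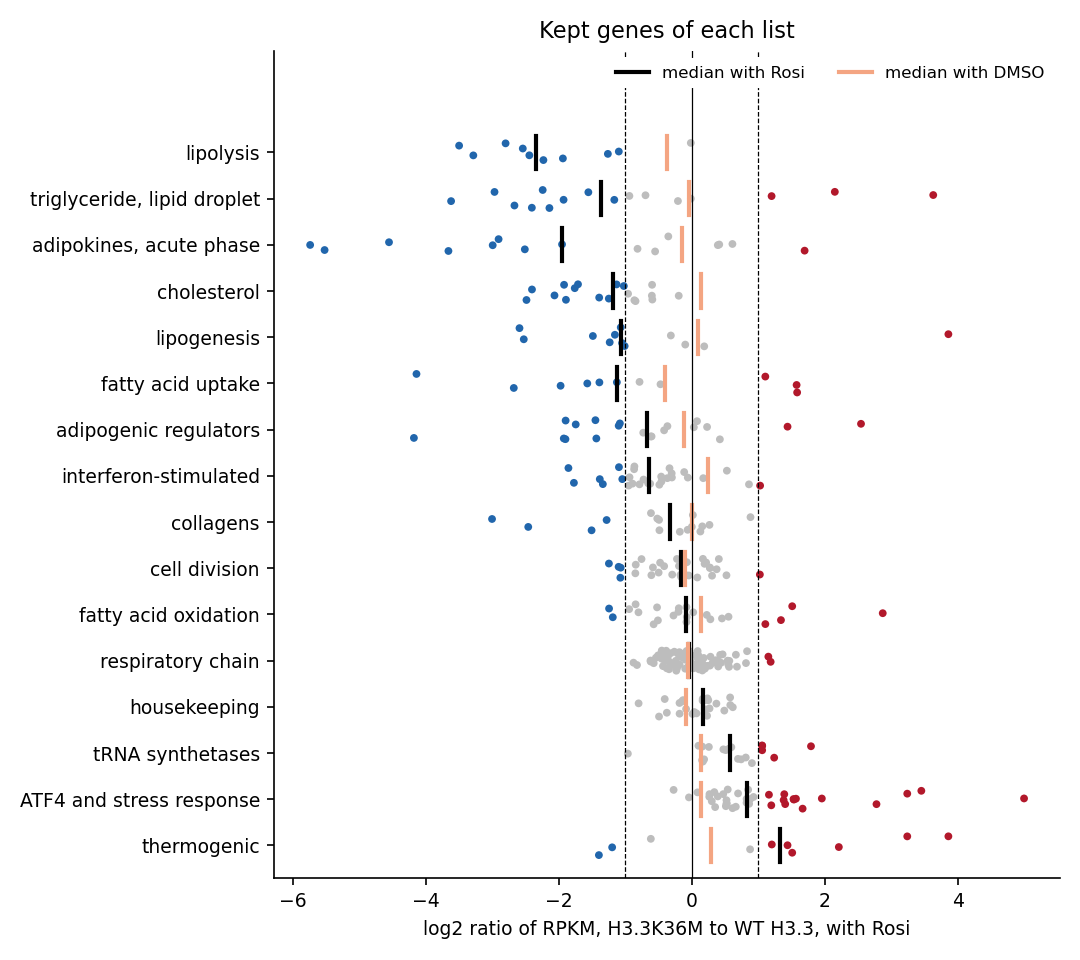
Log2 ratio of RPKM, H3.3K36M to WT H3.3, with Rosi, for each kept gene (point) of 16 gene lists; blue is over 2-fold lower, red over 2-fold higher, and dashed lines mark 2-fold. Black bars are list medians with Rosi and orange bars the medians of the same genes with DMSO; the cholesterol median lies at -1.19 with Rosi and at 0.15 with DMSO.

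Fatty acid uptake followed the same pattern in part. Of 11 kept genes, 6 were lower and 3 were higher. *Cd36*, a fatty acid transporter of the plasma membrane, had 83.7 RPKM in WT cells and 13.1 in K36M cells with Rosi. *Aqp7*, the glycerol channel of fat cells, had 17.8 and 4.54 RPKM. *Fabp4*, the fatty acid carrier that is the most abundant of these transcripts, had 2505 and 1148 RPKM, so that even in K36M cells it stood far above its DMSO levels of 112 and 69.4. *Vldlr*, a receptor for triglyceride-rich lipoproteins, was higher in K36M cells with 4.78 and 14.3 RPKM. Of 23 kept genes of mitochondrial fatty acid oxidation, 2 were lower and 4 were higher, against 12.1% and 7.02% of all kept genes, and the median log2 ratio was -0.08.

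Among regulators of adipogenesis, 9 of 20 kept genes were lower and 2 were higher, against 12.1% and 7.02% of all kept genes. *Srebf1*, which controls fatty acid synthesis, had 95.2 RPKM in WT cells and 25.1 in K36M cells with Rosi, and 29.8 and 32.7 with DMSO. *Rxra*, the partner of PPARγ, had 31.1 and 8.34 RPKM with Rosi, and 26.2 and 16.6 with DMSO. *Nr1h3*, which encodes the oxysterol receptor LXRα, had 17.8 and 6.53 RPKM with Rosi, and 4.47 and 4.69 with DMSO. For these 3 the gap was wider with Rosi than with DMSO. *Cebpa*, the lowest, went with Rosi from 36.2 to 187 RPKM in WT cells and from 7.98 to 10.3 in K36M cells. The early regulators *Cebpb* (108 and 127 RPKM with Rosi) and *Cebpd* (5.91 and 6.05) lay within 2-fold. The 2 higher genes were *Klf5*, a Krüppel-like factor of early adipogenesis, with 0.666 and 3.89 RPKM, and *Prdm16*, with 0.452 and 1.23. Both reached an RPKM of 1 in the K36M library alone, so nothing is read from the count of higher genes.

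Of 15 adipokine and acute phase genes kept, 8 were lower and 1 was higher, against 12.1% and 7.02% of all kept genes. *Retn*, the gene of resistin, had 6.85 RPKM in WT cells and 0.543 in K36M cells with Rosi, and *C3*, complement component 3, had 14.2 and 1.89. *Angptl4*, a secreted inhibitor of lipoprotein lipase and a well-known PPAR target, was not among them. It had 400 RPKM in WT cells and 612 in K36M cells with Rosi, against 42.7 and 56.5 with DMSO, so that its rise with ligand was present in both cells. Of 20 kept insulin and glucose transport genes, 8 were lower and 4 were higher, against the same shares. Of these, *Slc2a3* and *Igfbp3* reached an RPKM of 1 only with K36M, and *Slc2a4* and *Igf2* only with WT. They were thus kept because they were high there, which limits the reading of both counts. *Irs1*, the insulin receptor substrate, had 19.7 and 6.59 RPKM, and *Pik3r1*, the regulatory subunit of PI3-kinase, had 16.4 and 5.72 RPKM. *Igfbp4*, which binds insulin-like growth factors, was the most strongly expressed member on the higher side, with 13.96 and 101 RPKM.

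Cholesterol synthesis, and fatty acid synthesis in part, differed from the adipocyte genes in how the difference arose. Of 18 kept genes of cholesterol synthesis and uptake, 11 were lower and 0 were higher with Rosi. These counts stand against 12.1% and 7.02% of all kept genes. The median log2 ratio was -1.19 with Rosi. With DMSO 0 were lower and 0 were higher, and the median was 0.15. WT cells changed little with ligand, with *Insig1*, the sterol sensor gene, over 2-fold higher with Rosi than with DMSO and 0 genes lower, against 9.77% and 3.95% of all kept genes. In K36M cells 13 of the 18 (72.2%) were over 2-fold lower with Rosi than with DMSO, against 7.17% of all kept genes. *Insig1* had 11.8 RPKM in WT cells with DMSO and 40.3 with Rosi, against 13.0 and 9.63 for K36M cells. *Fdps* and *Idi1*, enzymes of isoprenoid synthesis, had 19.6 and 19.5 RPKM in WT cells with DMSO, where K36M cells had 19.2 and 21.96. With Rosi WT cells had 15.3 and 17.7, and K36M cells 4.12 and 5.23. *Srebf2*, the transcription factor that controls this pathway, had 42.4 and 41.4 RPKM with DMSO, and 36.4 and 15.3 with Rosi.

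Of 12 kept lipogenesis and desaturation genes, 8 were lower and 1 was higher with Rosi, against 12.1% and 7.02% of all kept genes. With DMSO 0 passed 2-fold in either direction. *Scd2*, a stearoyl-CoA desaturase, had 91.6 RPKM in WT cells and 98.5 in K36M cells with DMSO, and 120 and 20.0 with Rosi. *Fasn*, fatty acid synthase, had 57.6 and 62.7 RPKM with DMSO, and 57.7 and 20.6 with Rosi. For this pair the level in K36M cells was lower with Rosi than with DMSO, whereas WT cells stayed near their DMSO level. *Scd1*, another desaturase gene, instead went with Rosi from 27.7 to 90.7 RPKM in WT cells, and from 29.5 to 15.8 in K36M cells. Over the list, 4 of 12 genes were over 2-fold lower with Rosi than with DMSO in K36M cells and 1 in WT cells, and 1 was higher in each.

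**Figure D3:**
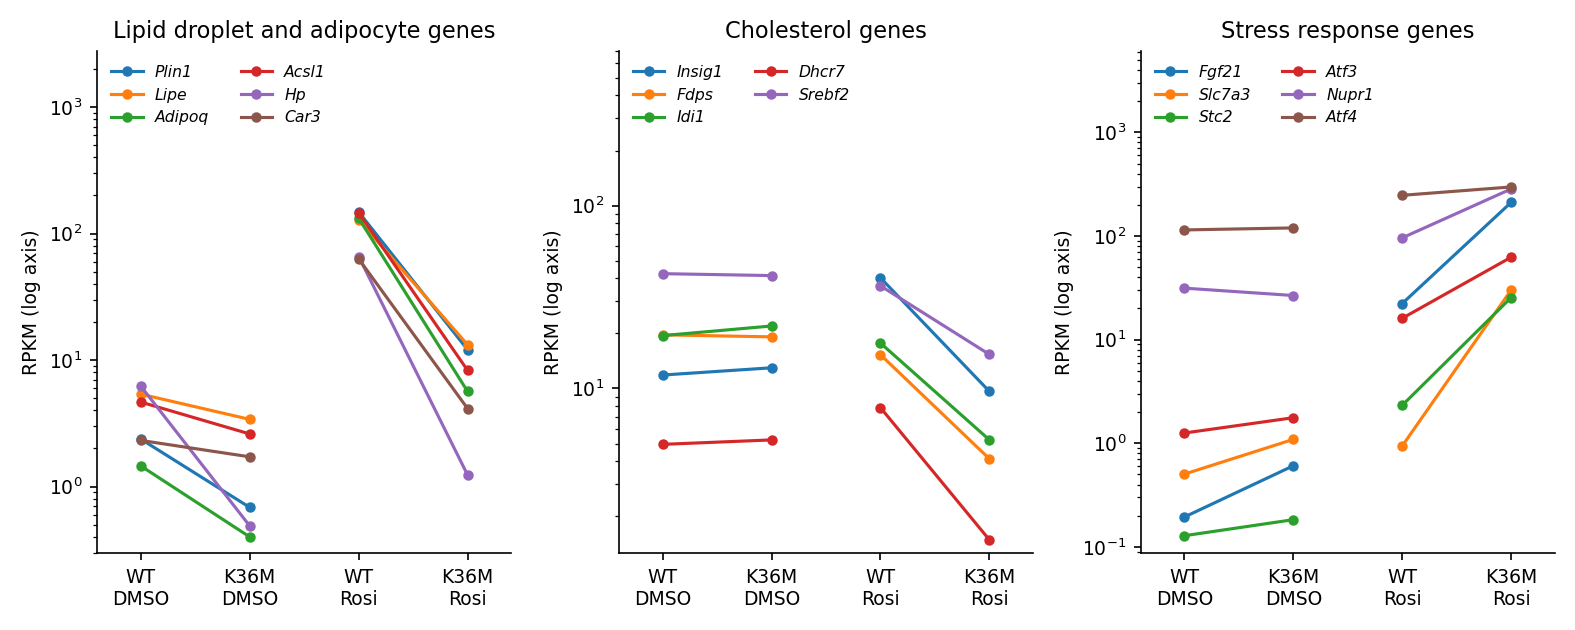
RPKM (log axis) of 6 adipocyte genes, 5 cholesterol genes, and 6 stress response genes in the 4 libraries with ectopic PPARγ, 1 point per library, with lines joining WT to K36M cells within each treatment. With Rosi the adipocyte genes stand lower in K36M than in WT cells. *Plin1*, *Adipoq*, *Lipe*, and *Acsl1* rise with Rosi in both kinds of cell. The cholesterol genes are low in K36M cells with Rosi alone, and *Fgf21* reaches 212 RPKM in K36M cells with Rosi.

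The genes highest in H3.3K36M cells were of several kinds. *B4galnt2*, a glycosyltransferase gene (chr11:95727257-95776205), had 0.163 RPKM in WT cells and 10.0 in K36M cells with Rosi (log2 ratio 5.94, counting interval 5.09 to 6.95), and 0.113 and 0.291 with DMSO. *Pla2g2e*, a secreted phospholipase A2 gene (chr4:138433857-138438732), had 0.213 and 12.5 RPKM with Rosi, from 3 and 135 reads (counting interval of the log2 ratio 4.30 to 8.17). *Mdk*, the heparin-binding growth factor midkine (chr2:91769962-91772454), had 1.68 and 20.9 RPKM with DMSO, and 0.840 and 28.3 with Rosi. *Uchl1*, a deubiquitinating enzyme known from neurons (chr5:67067360-67078472), had 0.922 and 7.80 RPKM with DMSO, and 0.316 and 10.2 with Rosi. The first pair rose in K36M cells with ligand, whereas *Mdk* and *Uchl1* were already high there with DMSO.

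The remaining genes of the 12 highest were *Slc7a3*, *H2-Q6*, *Bex1*, *Avil*, *Stc2*, *Chchd10*, *Serpinb9b*, and *Serpinb9g*, with log2 ratios of 3.29 or more. All 7 genes of the *Serpinb9* cluster, inhibitors of granzyme-type proteases, were over 2-fold higher, from *Serpinb9* itself (8.65 and 17.5 RPKM) to *Serpinb9b* (1.97 and 20.6 RPKM), and 5 of the 7 were so with DMSO. Of 9 kept nonclassical MHC genes of the Q and T regions, 5 were higher and 2 were lower. Of all kept genes 7.02% were higher and 12.1% lower. *H2-Q6* had 0.801 and 25.1 RPKM and *H2-Q4* had 24.8 and 53.7, whereas *H2-T22* had 28.4 and 9.26. Members of both families are near-identical copies, so their reads may have been divided among them in ways that are not known here. These 2 lists, and those of the stress response, tRNA synthetases, and endoplasmic reticulum chaperones, were chosen after the values were seen.

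Genes of the integrated stress response, a list chosen after the values were seen, were in part on the higher side. This response raises the transcription factor ATF4 when amino acids are scarce or protein folding is disturbed, and its targets import and make amino acids. Of 38 kept genes, 14 were higher and 0 were lower in K36M cells with Rosi, against 7.02% of all kept genes, with a median log2 ratio of 0.83. With DMSO 2 were higher and the median was 0.15. In WT cells 27 of the 38 were over 2-fold higher with Rosi than with DMSO, against 9.77% of all kept genes. In K36M cells 34 were so, against 7.83% of all kept genes. If the time 0 of the labels holds for the DMSO libraries, ligand and time in culture cannot be told apart.

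*Fgf21*, a hormone that acts on metabolism, had 0.194 RPKM in WT cells and 0.607 in K36M cells with DMSO, and 22.3 and 212 with Rosi (log2 ratio 3.24, counting interval 3.08 to 3.41). *Slc7a3*, a carrier of arginine and lysine, had 0.504 and 1.09 RPKM with DMSO, and 0.943 and 30.2 with Rosi. *Stc2*, the gene of the secreted glycoprotein stanniocalcin 2, had 0.128 and 0.183 RPKM with DMSO, and 2.33 and 25.5 with Rosi. These 3 genes were near silent in both kinds of cell with DMSO. The serine and one-carbon enzymes *Phgdh*, *Psph*, *Shmt2*, and *Aldh1l2* were all higher, with log2 ratios from 1.20 to 1.54, while with DMSO each was within 2-fold. *Cth*, which makes cysteine, had 18.2 and 57.8 RPKM with Rosi. The upstream factor *Atf4*, which is controlled mainly at translation, had 247 and 298 RPKM, and *Ddit3*, which encodes CHOP, had 121 and 196. Among cytosolic aminoacyl-tRNA synthetases 5 of 20 were higher, against 7.02% of all kept genes, and 0 were lower. *Wars* led them with 32.5 and 113 RPKM. Of 21 endoplasmic reticulum chaperone genes, 0 were lower and 0 were higher.

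The promoters of this group were searched for the C/EBP-ATF composite element TGATGCAA on both strands, in the 250 bases before the RefSeq transcription start. It was found in 260 of 32851 promoter windows (0.791%). In the stress response list, 6 of 33 genes with a listed promoter held it (18.2%): *Fgf21*, *Atf3*, *Nupr1*, *Slc7a11*, *Chac1*, and *Jdp2*. Of these, *Chac1* (80.6 and 116 RPKM) and *Jdp2* (35.5 and 37.7 RPKM) lay within 2-fold. Among tRNA synthetase genes 2 of 13 held it (15.4%), *Aars* and *Tars*, both within 2-fold. Of the fatty acid uptake genes 1 of 8 did (12.5%), and of the cholesterol, lipolysis, triglyceride, and adipokine genes 0. The stress response and tRNA synthetase lists were chosen after the values were seen, so nothing is read from their shares. Counted by gene, 15 of 583 genes higher in K36M cells held the element (2.57%), as did 7 of 1041 lower genes (0.672%) and 62 of all 9187 kept genes with a listed promoter (0.675%). A match describes the letters in the window and is not evidence of binding. Windows of 4 higher genes are shown from RefSeq (GRCm38.p6), read on the strand of the gene and ending at the base before the start, with the element in capitals.
Fgf21 (chr7:45615491-45615740, minus strand): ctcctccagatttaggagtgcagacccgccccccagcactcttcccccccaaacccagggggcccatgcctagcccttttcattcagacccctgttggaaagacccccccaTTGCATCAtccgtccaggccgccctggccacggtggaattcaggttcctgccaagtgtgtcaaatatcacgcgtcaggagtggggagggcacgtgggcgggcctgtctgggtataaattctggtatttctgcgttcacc
Chchd10 (chr10:75932880-75933129, plus strand): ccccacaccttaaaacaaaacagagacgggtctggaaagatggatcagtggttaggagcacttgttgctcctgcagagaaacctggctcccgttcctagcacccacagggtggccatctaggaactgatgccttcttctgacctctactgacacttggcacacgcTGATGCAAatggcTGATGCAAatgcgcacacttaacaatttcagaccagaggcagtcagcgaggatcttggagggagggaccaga
Atf3 (chr1:191183334-191183583, minus strand): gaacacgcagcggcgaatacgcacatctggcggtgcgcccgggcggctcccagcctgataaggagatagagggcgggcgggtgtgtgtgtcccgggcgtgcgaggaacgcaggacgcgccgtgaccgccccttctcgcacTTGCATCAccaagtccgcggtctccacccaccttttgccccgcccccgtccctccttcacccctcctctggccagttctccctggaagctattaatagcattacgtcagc
Nupr1 (chr7:126625471-126625720, minus strand): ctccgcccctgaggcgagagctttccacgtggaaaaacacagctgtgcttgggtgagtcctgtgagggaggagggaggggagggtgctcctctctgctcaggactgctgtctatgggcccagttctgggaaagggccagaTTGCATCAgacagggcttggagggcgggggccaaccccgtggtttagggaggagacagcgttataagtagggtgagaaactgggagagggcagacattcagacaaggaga

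In *Fgf21* the element began 139 bases before the start, on the opposite strand. *Chchd10*, a mitochondrial protein gene that no list held, had 2 copies on the same strand, beginning 85 and 72 bases before the start. It had 0.679 RPKM (WT) and 1.08 RPKM (K36M) with DMSO, and 8.74 and 93.7 with Rosi. In *Atf3*, a factor induced by stress, and *Nupr1*, a stress-induced chromatin protein, the element began 110 bases before the start. *Atf3* had 16.1 and 62.5 RPKM with Rosi and *Nupr1* had 96.1 and 285. *Slc7a11*, the cystine carrier, had 2 copies, beginning 66 and 47 bases before the start, and 5.37 and 12.01 RPKM with Rosi.

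The C/EBP element TTGCNNAA was common, in 9.56% of all windows, and it was found in 9.89% of lower and 10.1% of higher genes. It was in 4 of 10 adipokine and acute phase genes (40.0%) and 3 of 13 triglyceride and droplet genes (23.1%) with a listed promoter, and in 0 of 7 lipolysis and 1 of 8 fatty acid uptake genes (12.5%). *Plin1* held 2 copies, beginning 187 and 58 bases before the start, and *C3* held 1, beginning 45 bases before it. The PPAR element, as 2 copies of AGGTCA in the same direction with 1 base between them, was in 11 of 32851 windows, 1 of them of a lower gene. Only this exact spelling was counted. The *Plin1* window is shown with the element in capitals.
Plin1 (chr7:79732777-79733026, minus strand): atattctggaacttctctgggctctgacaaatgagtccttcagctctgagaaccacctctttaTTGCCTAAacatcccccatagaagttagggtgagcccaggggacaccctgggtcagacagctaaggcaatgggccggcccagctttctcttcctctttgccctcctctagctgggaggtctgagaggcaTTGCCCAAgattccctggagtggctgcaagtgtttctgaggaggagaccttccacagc

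Matrix, chemokine, and interferon genes were lower in part, and their counts stand against 12.1% of all kept genes lower and 7.02% higher. Of 16 kept collagens 4 were lower, all of type VI or XV: *Col6a1* had 612 RPKM in WT cells and 215 in K36M cells, *Col6a2* 505 and 208, *Col6a3* 252 and 45.8, and *Col15a1* 54.9 and 6.85. Fibrillar *Col1a1* had 670 and 468 RPKM. Of 23 matrix glycoprotein and crosslinking genes, 8 were lower and 2 higher, with *Vcan*, a large proteoglycan, at 46.5 and 3.76 RPKM and *Thbs1*, thrombospondin 1, at 170 and 21.2. *Vcan* and *Thbs1* were lower with DMSO too, at 36.5 and 11.3 and at 416 and 124 RPKM.

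Of 17 chemokine and cytokine genes 8 were lower and 2 were higher. With DMSO 7 were lower and 3 were higher, against 2.66% and 3.81% of all kept genes. Among those called with Rosi, *Il11*, *Ccl11*, *Cxcl5*, and *Il1rn* reached an RPKM of 1 in their higher library alone. *Cxcl12*, which guides progenitor and immune cells, had 23.9 and 2.27 RPKM, and *Ccl2*, a monocyte attractant, had 492 and 192. Interferon-stimulated genes formed a different pattern: 26 of 28 were over 2-fold higher with Rosi than with DMSO in WT cells and 15 of 28 in K36M cells, against 9.77% and 7.83% of all kept genes. With Rosi 6 were lower and 1 was higher in K36M cells, with the lowest ratios for *Mx1* (1.91 and 0.527 RPKM) and *Ifit3* (59.0 and 17.3), whereas with DMSO 0 were lower and 4 were higher.

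Genes of brown fat identity were mostly at low levels. Of 10 kept thermogenic genes, *Gk* and *Slc25a42* were lower, and *Fgf21*, *Cpt1b*, *Elovl3*, *Prdm16*, *Lhx8*, and *Ckmt1* were higher. The last 4 of these reached an RPKM of 1 in the K36M library alone, so that they were kept because they were high there, and nothing is read from the count. *Elovl3*, a fatty acid elongase of brown fat, had 0.257 RPKM in WT cells and 3.74 in K36M cells with Rosi, and *Cpt1b*, the carnitine transferase of oxidative muscle and brown fat, had 2.51 and 7.15. *Prdm16*, a factor of the brown lineage, had 0.452 and 1.23 RPKM. *Slc25a42*, a mitochondrial CoA carrier, was lower with 8.84 and 3.36 RPKM. Several of these levels lie near the minimum of 1. The mean of the silent receptor genes was 0.0677 RPKM in K36M cells with Rosi, and its part here was not tested.

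The *Hox* genes, which give cells their position along the body axis, were found on both sides. Of 30 kept, 7 were lower and 7 were higher, and since most of these reached an RPKM of 1 in their higher library alone, nothing is read from the counts. The lower ones were *Hoxa2* to *Hoxa6*, *Hoxb6*, and *Hoxc6*, with *Hoxc6* at 13.6 RPKM in WT cells and 5.06 in K36M cells. The higher ones were *Hoxa9* to *Hoxa11*, *Hoxb13*, *Hoxd4*, *Hoxd8*, and *Hoxd9*. *Hoxa11* had 0.0539 and 2.01 RPKM and *Hoxb13* had 0.184 and 3.01, and both were already high in K36M cells with DMSO, at 2.54 and 5.35. Apart from *Hoxd8*, the higher genes were near silent in WT cells, and all 7 reached low levels at most in K36M cells.

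Other groups held few or no genes over 2-fold, and their counts stand against 12.1% of all kept genes lower and 7.02% higher. Of 25 housekeeping genes, 0 were lower and 0 higher, with a median log2 ratio of 0.16. Of 89 respiratory chain genes, 0 were lower and 2 higher, and of 83 ribosomal protein genes, 0 were lower and 3 higher. Among 28 enzymes and subunits that write, read, or erase methylation at H3K36 and H3K27, *Jarid2*, a Polycomb cofactor, was lower (3.87 and 0.975 RPKM) and 0 were higher. *Nsd2*, the K36 methyltransferase, had 16.7 and 17.5 RPKM, and *Ezh2*, the K27 methyltransferase, had 22.7 and 16.2. Of 31 cell division genes, 4 were lower and 1 higher, a share of lower genes near the 12.1% of all kept genes, with *Mki67*, the proliferation antigen, at 27.2 and 11.5 RPKM and *Rrm2*, a subunit of ribonucleotide reductase, at 89.3 and 182.

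How far the differences with Rosi were present without ligand was examined in the DMSO pair, which shared no library with the Rosi pair. Of the 1446 lower genes 242 (16.7%) were over 2-fold lower with DMSO, against 2.66% of all kept genes, and 14 were higher. Of the 841 higher genes 292 (34.7%) were over 2-fold higher with DMSO, against 3.81% of all kept genes, and 4 were lower. Higher genes were called without ligand at a larger share than lower genes. However, only 436 higher and 988 lower genes reached an RPKM of 1 in both Rosi libraries. The K36M library with DMSO also carried more of the thin background, with a read in 700 sensory receptor genes against 384 in WT cells. The part of either in the contrast between the sides was not tested. The change from DMSO to Rosi was then taken for genes with reads in all 4 libraries. For 1404 lower genes its median was 0.63 (log2) in WT cells and -0.43 in K36M cells. For 791 higher genes the medians were -0.19 and 0.59. The ratio within each kind of cell shares the Rosi library that chose these genes, so these medians are a description.

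Over the 10459 genes that reached an RPKM of 1 in all 4 libraries, the K36M to WT log2 ratio fell by over 1 from DMSO to Rosi for 665 and rose by over 1 for 274. The ratio with Rosi correlated with that with DMSO across these genes (Pearson's r of 0.49, Spearman's rho of 0.39), where genes are not independent replicates and each ratio carries the depth of its own libraries. The ratio fell most for *Cdo1*, *Aoc3*, *Car3*, *Acsl1*, *Ifi27l2a*, and *Gas6*. *Cdo1*, cysteine dioxygenase, had 1.17 RPKM in WT cells and 1.37 in K36M cells with DMSO, and 58.4 and 3.92 with Rosi. *Aoc3*, an amine oxidase of the fat cell surface, had 8.26 and 9.49 RPKM with DMSO, and 48.8 and 3.86 with Rosi. The ratio rose most for *Snord99*, *Cth*, *Inhba*, *Mir5136*, *Ciart*, and *Rpl12*. *Inhba*, the activin A subunit gene, had 57.3 and 50.03 RPKM with DMSO, and 9.45 and 38.7 with Rosi, so that WT cells lost it with ligand and K36M cells largely retained it. *Snord99* and *Mir5136* rest on 4 and 11 reads in the Rosi libraries, and reads of such short genes may stem from a host transcript.

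**Figure D4:**
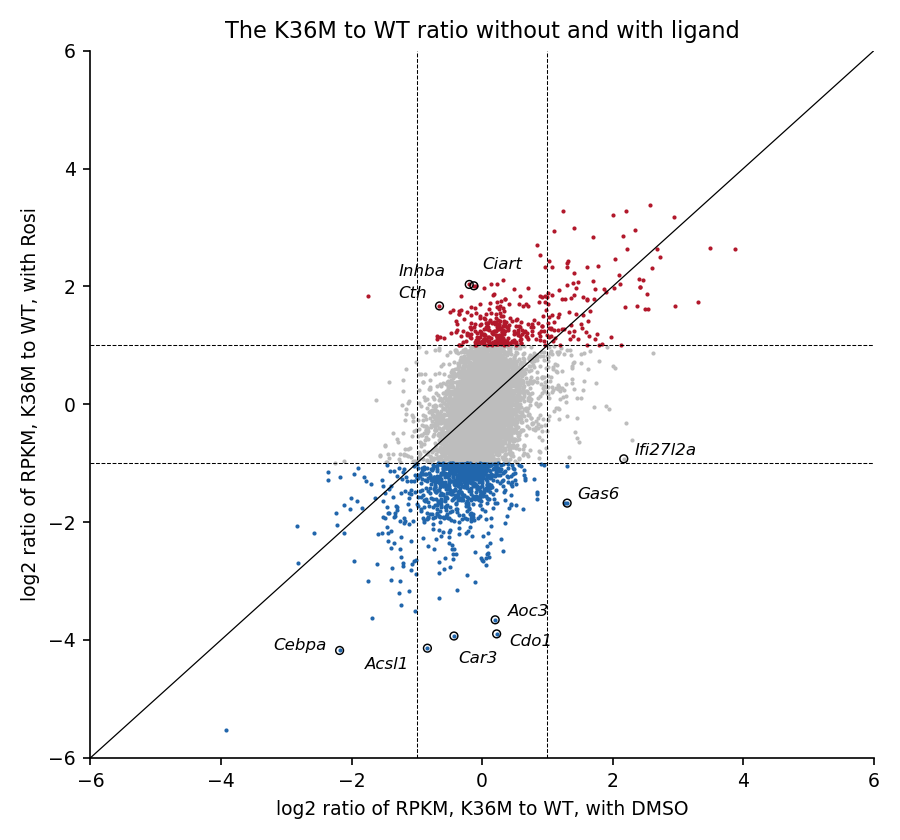
Log2 ratio of RPKM, H3.3K36M to WT H3.3, with DMSO (x axis) and with Rosi (y axis) for 10459 genes that reached an RPKM of 1 in all 4 libraries; blue and red are over 2-fold lower and higher with Rosi, dashed lines mark 2-fold, and the solid line marks equal ratios. *Cdo1*, *Aoc3*, and *Car3* lie near 0 on the x axis and near -4 on the y axis.

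The same genes were followed in the other experiments of the series, which used cells without ectopic PPARγ. Of the 1446 lower genes, 405 (28.0%) were lower by over 2-fold in K36M cells at D0, 202 (14%) at D2, and 373 (25.8%) at D7 of adipogenesis, against 4.99%, 3.47%, and 6.77% of all kept genes. The share was thus over the background at each time, and smallest at D2. At D2 181 of them (12.5%) were higher, against 9.38% of all kept genes. With knockdown of Nsd2 in place of the mutant histone, 325 (22.5%) were lower at D0 and 391 (27%) at D2, against 9.56% and 8.53%. Higher genes were followed in the same way. Of the 841, 277 (32.9%) were higher in K36M cells at D0, 303 (36%) at D2, and 307 (36.5%) at D7, against 3.84%, 9.38%, and 9.40%. With Nsd2 knockdown 120 (14.3%) were higher at D0 and 104 (12.4%) at D2, against 4.76% and 3.66%, while 117 (13.9%) and 78 (9.27%) were lower, against 9.56% and 8.53%.

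**Figure D5:**
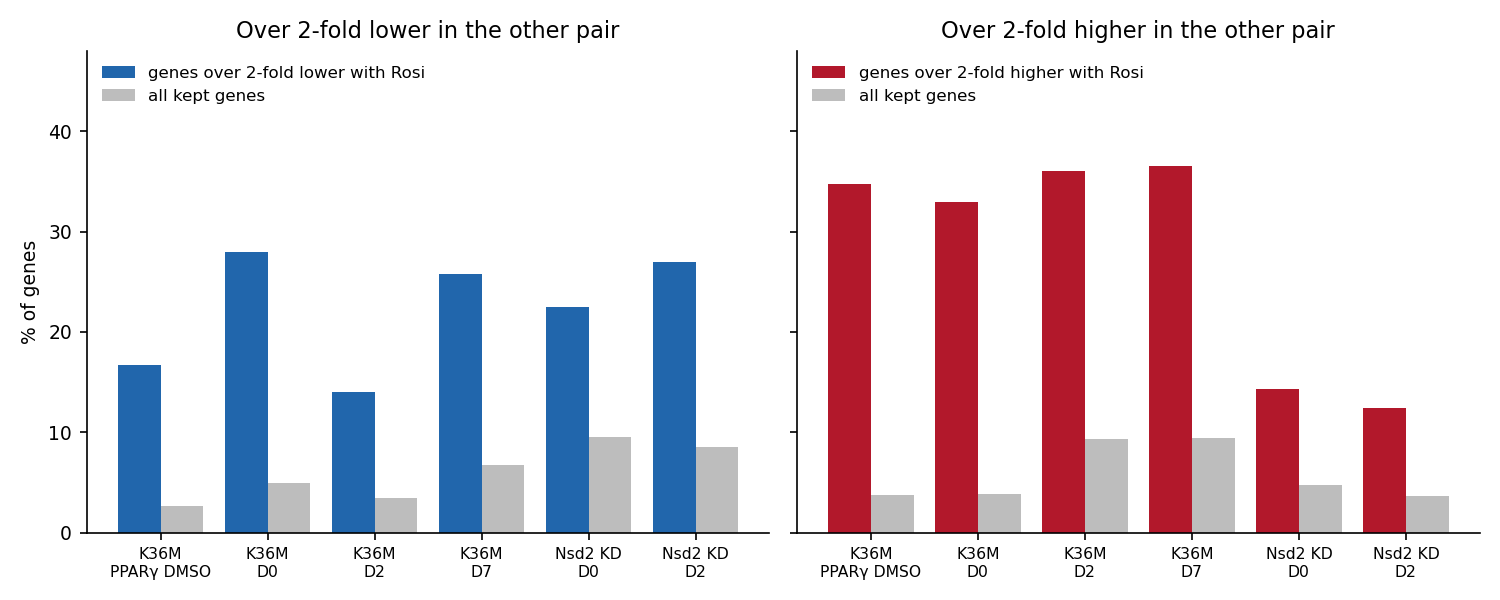
Share of genes (%) over 2-fold lower (left) or higher (right) in each of 6 other pairs of libraries, for genes over 2-fold on that side with Rosi (coloured bars) and for all 11987 kept genes (grey bars). Coloured bars reach from 14% to 28.0% on the left and from 12.4% to 36.5% on the right, and grey bars stay under 10%.

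Individual genes differed across these 5 pairs and the DMSO pair. *Agt* was lower in each of the 6 other pairs, with log2 ratios between -5.87 and -1.04. *Uchl1* was higher in each of the 6, with log2 ratios between 1.10 and 3.08. *Chchd10* was higher in K36M cells at D0 (2.00) and D2 (1.04) but lower at D7 (-2.97) and with Nsd2 knockdown at D2 (-3.17). Among the stress response genes, *Fgf21* had log2 ratios of 1.54, 0.60, and 0.97 at D0, D2, and D7, and *Slc7a3* had 3.45, 2.58, and 1.39. *Cth* had 0.67, -1.28, and -0.92, and *Stc2* had 1.43, 0.32, and 0.16. These 4 were thus above 0 at D0, and *Cth* was below 0 at D2 and D7. With Nsd2 knockdown at D0 and D2, these 4 genes had 0.18 and -1.33 (*Fgf21*), 0.03 and 1.19 (*Slc7a3*), -0.47 and -0.81 (*Cth*), -1.82 and -0.75 (*Stc2*).

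Lower and higher genes also lay near genes of their own kind on the chromosomes. Of 1229 lower genes with a position in GENCODE M1, 430 (35.0%) were next to another lower gene in the order of kept genes, against 20.5% of genes that were not lower. Of 720 higher genes 154 (21.4%) were next to another higher gene, against 12.8% of the others. Overlapping transcripts and families of copies such as the *Serpinb9* cluster are included in these shares. The median transcript length was 3022 bases for lower, 2000 for higher, and 2681 for all other kept genes.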

How the data were processed

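RNA-Seq values of 14 libraries with 1 library per condition were used, 4 of them with ectopic PPARγ. The authors deposited RPKM for 29082 RefSeq transcripts per library. The submitters' processing notes name CASAVA 1.8.2 and mm9, and the RNA-Seq aligner and counter are not given in the sources used here. A symbol was found in RefSeq (GRCm38.p6, names only) for 28436 transcripts, the transcript with the largest RPKM, averaged over all 14 libraries, stood for its gene, and positions came from GENCODE M1 (NCBIM37). Mapped reads and whole reads were recovered from the RPKM for 28221 of 28221 transcripts above 0, as whole reads divided by length and library total (largest deviation 3.07e-07 reads). Where all reads of a transcript share a factor, its reads are understated. Genes were called at over 2-fold with RPKM of at least 1 in either Rosi library. Intervals are 95% Clopper-Pearson intervals, and where a library was at 0 the ratio was set at 3 reads in that library. Calls, read recovery, and motif searches were tested on simulated data.

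The genes and the 47 lists were chosen with earlier results of these data known, and 7 lists were added after the values were seen. Named genes are the 12 lowest and 12 highest (RPKM of at least 10 in the higher library), list members with the lowest or highest ratio or the 3 highest RPKM, the 6 whose ratio fell or rose most from DMSO to Rosi, genes that check the labels, and the genes at the threshold. Further members were named after their values were seen. Alternatives concerned the filter, pseudocount, scaling, transcript choice, fold, and counting interval. ChIP-Seq was not analysed here. Python 3.11.15, numpy 2.4.6, pandas 2.3.3, and scipy 1.17.1 were used.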

Additional observations from a re-analysis of the deposited data

Results flagged for a closer look

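A few genes were over 2-fold higher in K36M cells with DMSO and over 2-fold lower with Rosi, or the reverse, with counting intervals that excluded 1 in both pairs and an RPKM of at least 5 with Rosi. The difference between the 2 treatments was not tested, since each condition has 1 library. *Gas6*, the ligand of the TAM receptor kinases, had a log2 ratio of 1.30 with DMSO and -1.68 with Rosi (11.97 and 29.5 RPKM in WT and K36M cells with DMSO, 26.8 and 8.38 with Rosi). *Angpt4*, an angiopoietin gene, had 1.27 and -1.68. *Dapk1*, a death-associated kinase gene, had 1.19 and -1.37. *Rbp4*, the retinol carrier secreted by fat cells and liver, had 1.05 and -1.95. *Snord99* had -1.75 and 1.85, from between 4 and 12 reads per library.

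Reads in genes outside the comparison were more frequent in K36M cells. Of 1506 sensory receptor genes, 814 had a read in the K36M library with Rosi and 339 in the WT library, although the WT library was the deeper. Thinned to 12660471 reads, the WT library had 265 such genes, and 17126 genes of any kind had a read, against 19981 in K36M cells.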

How the results depend on the processing

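The counts depended most on the filter. With any RPKM above 0 kept, 2612 genes were lower and 5886 higher, so that the side with more genes changed. With RPKM of at least 5 in either library 825 were lower and 391 higher, and with RPKM of at least 1 in both 436 were higher. A pseudocount of 1 gave 858 and 517, and 3-fold in place of 2-fold gave 590 and 432. With the added pseudocount of 1, chosen after seeing the data, 109 lower and 143 higher genes were so with DMSO too, and the ratio fell by over 1 for 432. Rescaling to the median put the median log2 ratio of K36M to WT with Rosi at -0.00365. Of the other 34 overall values, each stayed within 1.5 times (counts) or 0.1 (log2) of the value reported, as did 427 of 450 list counts, whereas 139 values of named genes moved beyond their counting interval (921 did not), and 0 named genes over 2-fold changed direction under any of these. No paired analysis was possible because each condition has 1 library. Depth limits genes near RPKM 1, and the cause of the filter's effect was not tested.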
